A study of Arabidopsis thaliana and Hordeum vulgare and Setaria italica with 13 samples.

Results

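Alanine and isoleucine tRNAs of plants are described here for 6 families, AlaAGC, AlaCGC, AlaTGC, IleAAT, IleGAT and IleTAT, each the set of tRNAs with 1 anticodon, named by the amino acid followed by that anticodon with T for U. IleCAT, a further isoleucine tRNA, is not one of the 6, since it is not among the families of the tRNA-seq table and its gene anticodon is that of tRNA-Met. The 6 were chosen by name, and they are 6 of the 52 families of the tRNA-seq table and 16 of the 532 tRNA sequences listed in the 5 YAMAT-seq files (6 each in Arabidopsis thaliana and Triticum aestivum, 3 in Hordeum vulgare, 1 in Zea mays and 0 in Setaria italica). The study sequenced tRNAs of 10-day-old seedlings grown in soil at 23 °C under 16 h light and 8 h dark, without treatment or genotype contrast. The tRNA-seq libraries, made from pretreated RNA with a small RNA kit, cover leaf and root of A. thaliana and seedlings of Glycine max (soybean), H. vulgare (barley), Sorghum bicolor (sorghum), S. italica (foxtail millet), T. aestivum (wheat) and Z. mays (maize), and each value is a family's percentage of all tRNA in its library, at unknown depth. YAMAT-seq ligates a Y-shaped adapter to mature tRNAs by means of the CCA at their 3′ end, which favours full-length molecules, and was applied to A. thaliana and to all grasses but S. bicolor, with 6851530 to 19833183 reads. There was 1 library per group, and GlyGCC took 55.3% to 95.1% of the YAMAT-seq reads. The A. thaliana leaf and root columns held identical values in 52 of 52 families and were counted once. The tissue behind the A. thaliana tRNA-seq values is therefore unknown, whereas all other libraries are labelled seedling.

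A tRNA carries 1 amino acid to the ribosome and reads its codons through the anticodon. Plant cells make tRNAs in the nucleus, the plastid and the mitochondrion. The plastid genes for the AlaTGC and IleGAT tRNAs lie in the spacer between the 16S and 23S rRNA genes, are transcribed with the rRNAs in 1 operon and hold group II introns that are spliced out. The nuclear AlaAGC and IleAAT tRNAs have an A as first anticodon base, which is converted to inosine so that 1 tRNA reads several codons. The enzyme that charges tRNA-Ala recognises chiefly a G:U pair, the third pair of the acceptor stem.

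In the TAIR10.1 assembly of A. thaliana, used here for names and positions, IleGAT (ArthCt107) lies on the plastid genome at 102801 to 103601 on the plus strand, with an intron of 729 bases after base 37 of the tRNA. AlaTGC (ArthCt108) follows at 103665 to 104538 on the same strand, 63 bases further on, with an intron of 801 bases after base 38. The pair stands between rrn16S (101012 to 102502) and rrn23S (104691 to 107500). The second copy of the operon lies on the minus strand, with AlaTGC (ArthCt114) at 134111 to 134984 and IleGAT (ArthCt124) at 135048 to 135848.

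**Figure D1:**
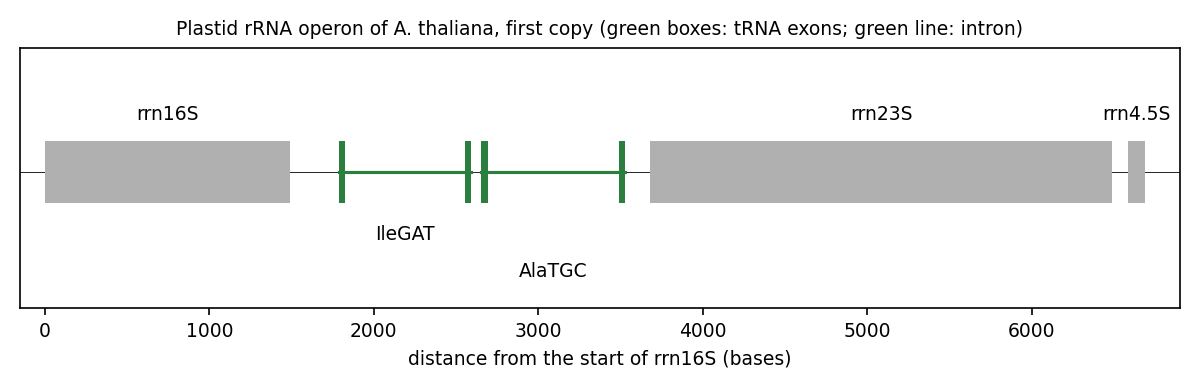
Map of the first copy of the plastid rRNA operon of A. thaliana, with the distance from the start of rrn16S in bases on the x axis, grey boxes for rRNA genes, green boxes for tRNA exons and green lines for introns. Most of the length of both tRNA genes is intron, 729 bases in IleGAT and 801 in AlaTGC.

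The annotation holds 16 nuclear genes of AlaAGC, 7 of AlaCGC, 10 of AlaTGC, 17 of IleAAT and 5 of IleTAT, 55 genes in all, and no nuclear gene of IleGAT. AlaTGC is thus the only one of the 6 families with both plastid and nuclear genes in this annotation. The tRNA-seq table gives 1 value per anticodon, so in it the plastid and nuclear AlaTGC tRNAs cannot be told apart.

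The YAMAT-seq sequences show which tRNAs were read. Those below are printed because they set the operon tRNAs apart from the others of the same amino acid, and because the IleGAT entries of barley and wheat are not like the plastid tRNA. Capitals mark the anticodon in the middle and the bases of the third pair of the acceptor stem near either end. The last 3 bases are the CCA tail, except in the gene sequence.
AlaTGC of the plastid operon, A. thaliana, 19837 reads: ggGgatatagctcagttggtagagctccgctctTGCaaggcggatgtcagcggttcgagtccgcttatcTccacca
AlaTGC identical to 9 nuclear genes, A. thaliana, 7 reads: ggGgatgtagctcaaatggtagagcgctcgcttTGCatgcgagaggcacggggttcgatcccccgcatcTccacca
AlaTGC, H. vulgare, 2 reads: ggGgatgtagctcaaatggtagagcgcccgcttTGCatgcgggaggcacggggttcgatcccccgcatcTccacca
AlaCGC, A. thaliana (2 reads) and T. aestivum (6 reads): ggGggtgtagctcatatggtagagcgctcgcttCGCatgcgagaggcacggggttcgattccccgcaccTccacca
AlaAGC, Z. mays, 2 reads: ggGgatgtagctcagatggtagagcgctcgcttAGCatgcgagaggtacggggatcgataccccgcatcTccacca
IleGAT of the plastid operon, A. thaliana, 579 reads: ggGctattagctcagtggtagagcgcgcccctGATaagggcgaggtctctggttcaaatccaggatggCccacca
IleGAT anticodon, H. vulgare, 2 reads: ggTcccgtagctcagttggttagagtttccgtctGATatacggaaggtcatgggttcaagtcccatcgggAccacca
IleGAT anticodon, T. aestivum, 4 reads: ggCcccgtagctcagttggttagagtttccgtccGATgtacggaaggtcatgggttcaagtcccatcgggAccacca
IleAAT, A. thaliana, 2 reads: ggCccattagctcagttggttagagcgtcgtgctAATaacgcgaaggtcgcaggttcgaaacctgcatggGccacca
IleTAT gene sequence, A. thaliana, 4 nuclear genes, without reads: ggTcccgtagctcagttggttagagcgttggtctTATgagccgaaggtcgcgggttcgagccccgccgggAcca

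In YAMAT-seq nearly all reads of the 6 families were of the operon pair in A. thaliana. The 6 families held 20429 reads in A. thaliana, 20 in T. aestivum, 5 in H. vulgare and 2 in Z. mays, and none was listed in S. italica. In A. thaliana 19837 reads were of the operon AlaTGC sequence and 579 of the operon IleGAT sequence. None of the 10 grass sequences was the spliced plastid sequence of A. thaliana or nearer to it than to a nuclear tRNA, and the most read of them had 6 reads.

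AlaTGC, the alanine family of the operon, held 19844 YAMAT-seq reads in A. thaliana, a share of 0.148% (95% Clopper-Pearson interval 0.146 to 0.150). It held 2 reads in H. vulgare and was not listed in the other 3 grasses. This interval and the later ones reflect counting error alone, because reads amplified by PCR and not tagged with molecular identifiers can be copies of 1 molecule. The plastid sequence made up 99.96% (99.93 to 99.99) of the A. thaliana reads, and the other 7 reads were identical to 9 nuclear genes, among them AT1G08870 (chromosome 1, 2846536 to 2846608, minus strand).

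IleGAT, the isoleucine family of the operon, held 579 reads in A. thaliana, a share of 0.00431% (0.00396 to 0.00467). Wheat had 4 reads with this anticodon and barley 2, and it was not listed in S. italica and Z. mays. All 579 reads of A. thaliana were of the plastid sequence. In that library the operon AlaTGC sequence was thus read 34.3 times (31.5 to 37.3) as often as the operon IleGAT sequence.

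The other 4 families were near the lowest counts the files hold. AlaCGC had 4 reads in A. thaliana and 12 in T. aestivum. IleAAT, the main nuclear isoleucine tRNA by gene number, had 2 reads in A. thaliana, 1 in H. vulgare and 4 in T. aestivum. AlaAGC, the main nuclear alanine tRNA by gene number, had 2 reads in Z. mays and was not listed elsewhere, and IleTAT was not listed in any of the 5 files. The sources used here do not say which reference tRNAs were offered for each species, so a family without reads need not be absent.

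**Figure D2:**
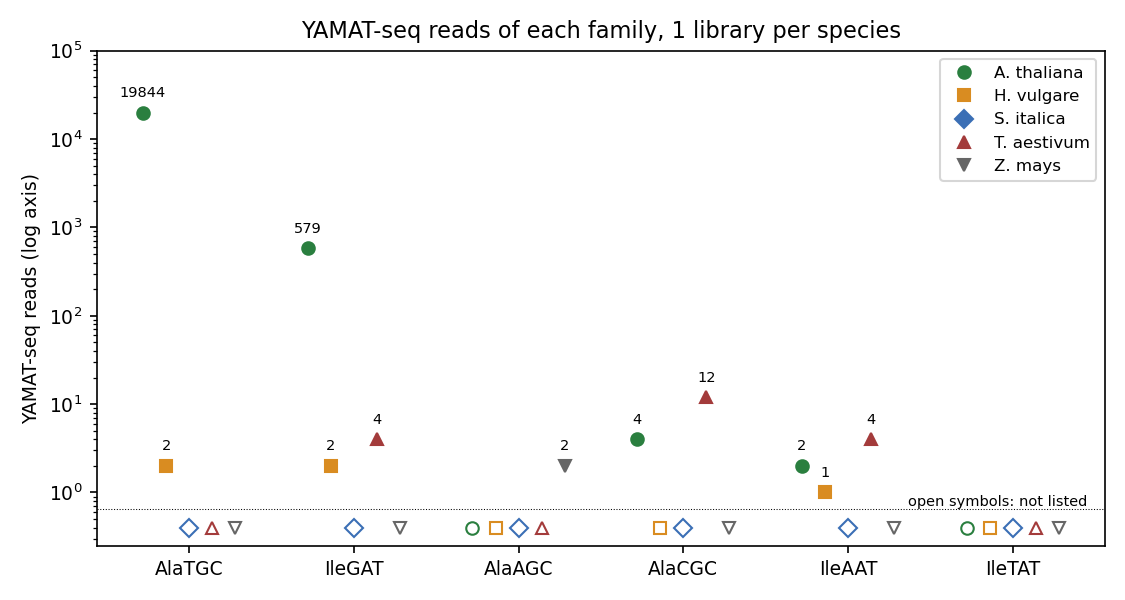
YAMAT-seq reads of each family on a log axis, 1 point per species with its count, and open symbols below the dotted line for families that a file does not list. AlaTGC with 19844 and IleGAT with 579 reads in A. thaliana stand above all other points, of which the highest is 12 reads.

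Among the 30 distinct plastid tRNA sequences of A. thaliana, 29 were listed in its YAMAT-seq file. AlaTGC stood at rank 11 and IleGAT at rank 25 by reads. Of the 6 plastid tRNAs with an intron, AlaTGC had the most reads, followed by LeuTAA with 13433, LysTTT with 2209, ValTAC with 1393 and IleGAT with 579, while the annotated spliced GlyTCC sequence was not listed. The operon pair thus held the most and the least read of the 5 listed tRNAs with an intron. GlyGCC, which has no intron, led with 7431104 reads, and the plastid isoleucine tRNA outside the 6 families, IleCAT, had 218.

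**Figure D3:**
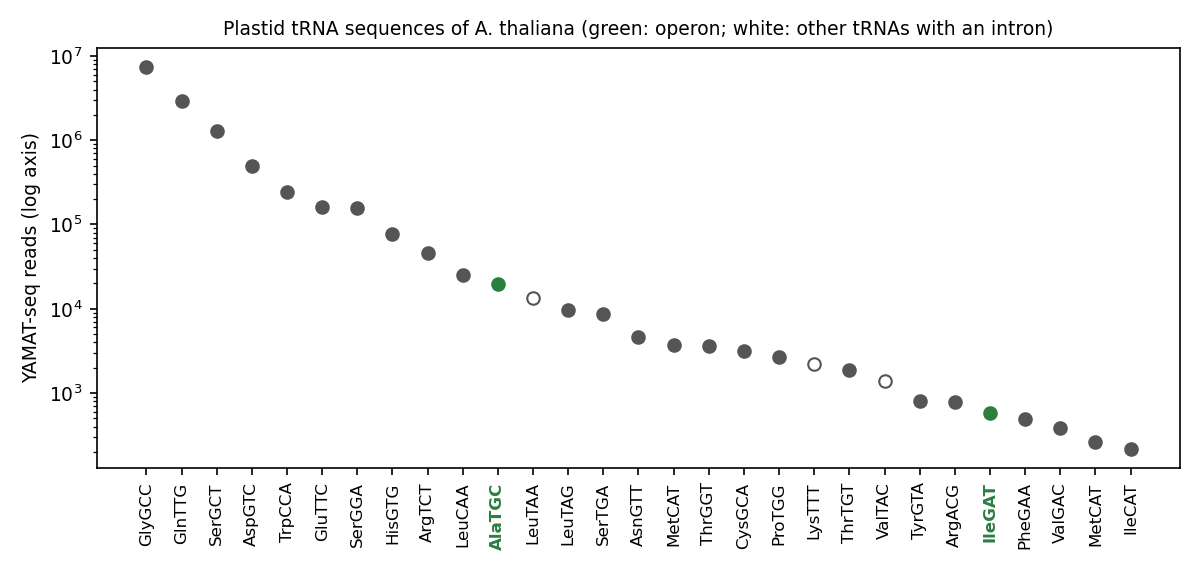
YAMAT-seq reads of the 29 listed plastid tRNA sequences of A. thaliana on a log axis, in order of reads, with the operon pair in green and other tRNAs with an intron in white. AlaTGC (19837 reads) lies in the upper middle and IleGAT (579 reads) near the low end.

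In tRNA-seq the order of the families was another one: IleAAT led the 6 families in every species but A. thaliana, and AlaTGC and IleGAT led in A. thaliana. The 6 families together made up 0.854% (Z. mays) to 2.79% (S. bicolor) of the tRNA abundance. Alanine tRNAs summed to 0.0251% to 0.445% and isoleucine tRNAs to 0.515% to 2.56%, and isoleucine was above alanine in 7 of 7 species.

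AlaTGC stood at 0.445% in A. thaliana, 0.0993% in H. vulgare, 0.0578% in T. aestivum, 0.0488% in G. max and 0.0167% in Z. mays, and was listed at 0 in sorghum and foxtail millet. A. thaliana was thus well above the next species. IleGAT stood at 0.346% in A. thaliana and 0.00723% in T. aestivum, the smallest nonzero value of that column, and was listed at 0 in the other 5 species. The A. thaliana values were 45 and 35 times the smallest nonzero value of their column, whereas AlaTGC in the 4 other species above 0 was 2 to 14 times it. Of the 32 nonzero values of the 6 families, 32 were whole multiples of that smallest value to within 0.001, so the low ones lie on coarse steps. Without replicates, no neighbours in these orders can be shown to differ.

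IleAAT stood at 2.41% in S. bicolor, 2.05% in S. italica, 1.70% in H. vulgare, 1.32% in G. max, 0.703% in Z. mays and 0.549% in T. aestivum. A. thaliana lay below them at 0.0297%, which is 3 times the smallest nonzero value of its column. IleAAT ranked between 10 and 23 of the 52 families in the 6 other species and at 44 in A. thaliana.

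IleTAT, the minor isoleucine tRNA that reads ATA codons, was above 0 in 7 of 7 species. It stood at 0.152% in S. bicolor, 0.139% in A. thaliana, 0.126% in maize, 0.0976% in soybean, 0.0935% in foxtail millet, 0.0651% in wheat and 0.00710% in barley, where it equalled the smallest nonzero value of the column. Barley was thus the low species, and the other 6 lay within 0.0651% to 0.152%.

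AlaCGC stood at 0.206% in barley, 0.203% in sorghum, 0.123% in wheat, 0.0351% in foxtail millet, 0.0293% in soybean and 0.00837% in Z. mays, the smallest nonzero value of that column, and was listed at 0 in A. thaliana. AlaAGC stood at 0.0781% in barley, 0.0723% in wheat, 0.0351% in foxtail millet, 0.0293% in soybean and 0.0253% in sorghum, again the smallest nonzero value there. It was listed at 0 in A. thaliana and Z. mays. In A. thaliana, AlaAGC with its 16 genes and AlaCGC with its 7 were thus both at 0, and IleAAT with its 17 genes was at 0.0297%.

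**Figure D4:**
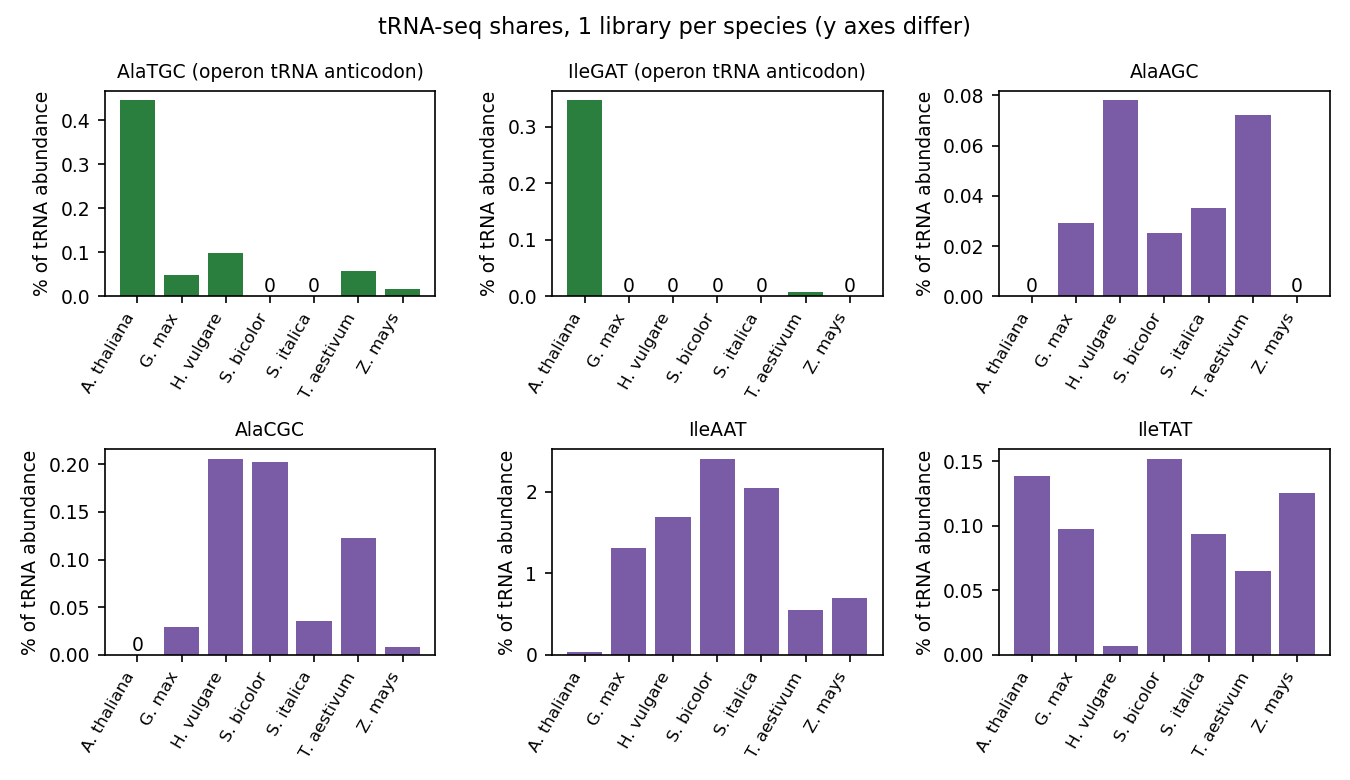
tRNA-seq share of each family as percent of tRNA abundance, 1 bar per species, with 0 written where a family is listed at 0 and a y axis of its own in each panel. The operon anticodons (green) are highest in A. thaliana at 0.445% and 0.346%, and IleAAT is lowest there at 0.0297%.

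The operon pair was compared with the other 4 families within each library, which does not depend on what GlyGCC or any other family takes of the total. In tRNA-seq AlaTGC and IleGAT made up 82.5% of the 6 families in A. thaliana, 7.44% in T. aestivum, 4.76% in H. vulgare, 3.21% in G. max and 1.96% in Z. mays, and were listed at 0 in S. bicolor and S. italica. In YAMAT-seq they made up 99.97% (99.94 to 99.99) of the reads of the 6 families in A. thaliana. Of the grasses, H. vulgare had 4 of 5 reads with an operon anticodon, T. aestivum 4 of 20 and Z. mays 0 of 2. None of these grass reads was of a sequence nearest to a plastid tRNA of A. thaliana. In A. thaliana the pair of operon anticodons was thus above the other 4 families in both assays, and in tRNA-seq it was below them in the other 6 species. The tRNA-seq AlaTGC value does not tell plastid from nuclear tRNAs, and IleGAT was above 0 only in A. thaliana and T. aestivum. Outside these, the tRNA-seq value of the pair is therefore AlaTGC alone. The A. thaliana tRNA-seq values are of unknown tissue, leaf or root, and the other 6 species are labelled seedling. Species and tissue cannot be told apart in that contrast.

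**Figure D5:**
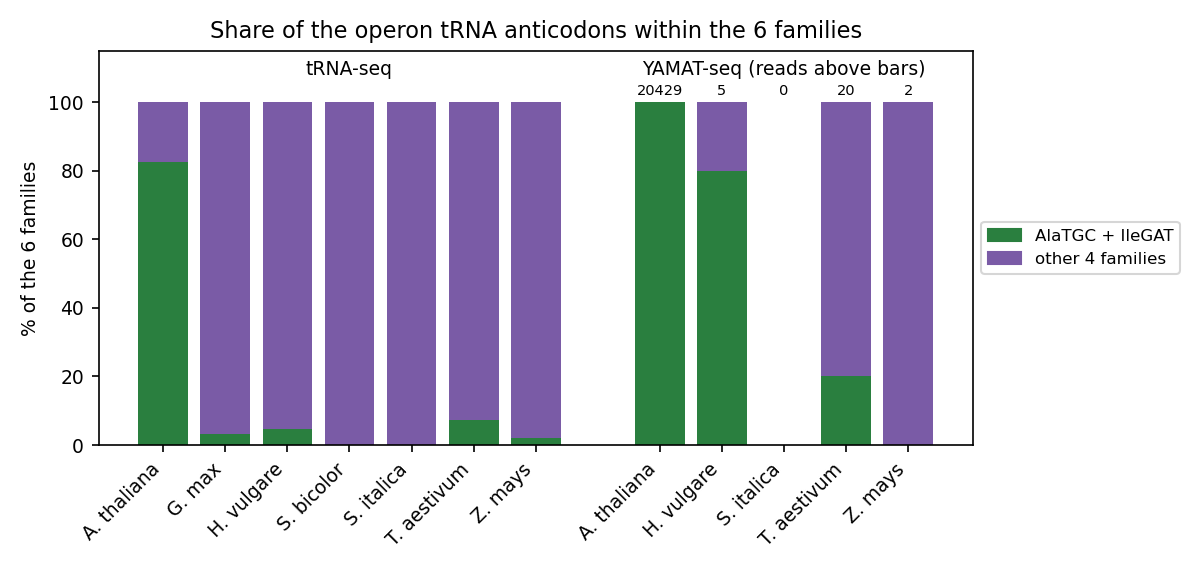
Share of AlaTGC and IleGAT (green) and of the other 4 families (purple) within the 6 families, 1 bar per library, with the YAMAT-seq reads of the 6 families above the bars. The operon anticodons take 82.5% in tRNA-seq and 99.97% in YAMAT-seq of A. thaliana and at most 7.44% in tRNA-seq of another species, and the YAMAT-seq bars of the grasses rest on 2 to 20 reads.

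Setting YAMAT-seq beside tRNA-seq asks how the shares differ between the assays. YAMAT-seq selects full-length tRNAs with a CCA end, but RNA pretreatment and library kit differ too, and these cannot be told apart. IleAAT and IleTAT were lower in YAMAT-seq in 5 of 5 species, as were 31 of all 52 families (59.6%), so 2 of 6 members is no excess. No member was higher in 5 of 5 species, which held for 1 of 52 families (1.92%). The mean log2 ratio of YAMAT-seq to tRNA-seq, on the scale of percent + 0.01, was -5.81 ± 2.28 (SD, n = 5 species) for IleAAT and -2.94 ± 1.27 (SD, n = 5) for IleTAT. For both, an exact permutation test that flips signs over the species, two-sided, gave p = 0.0625, the smallest that 5 species allow, and an adjusted p of 0.102 over the 52 families. No family of the 52 passed, and 0 of 52 had an unadjusted p under 0.05.

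IleAAT was 0.0297% to 2.05% of tRNA-seq and at most 3.80e-05% of YAMAT-seq in the 5 species with both assays. AlaTGC had a mean log2 ratio of -1.83 ± 1.33 (SD, n = 5) and was lower in 4 species, with no reads and a tRNA-seq value of 0 in S. italica. AlaCGC had a mean of -2.24 ± 1.86 (SD, n = 5) and was lower in 4 species and higher in 1. AlaAGC had a mean of -1.67 ± 1.57 (SD, n = 5) and was lower in 3 species and higher in 1. IleGAT had a mean of -1.08 ± 2.02 (SD, n = 5) and was lower in 2 species and higher in 1. That mean rests on A. thaliana and was -0.19 without it. The median over the 6 families was -2.04, beside -3.95 over all 52. Most of these YAMAT-seq shares lay under the pseudocount, so the sizes are set by it and by the tRNA-seq share.

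The operon pair had counts large enough for a ratio in A. thaliana alone. AlaTGC was 3.02-fold lower in YAMAT-seq, at 0.148% against 0.445%. IleGAT was 80.4-fold lower, at 0.00431% against 0.346%. These folds depend on GlyGCC, which took 55.3% of that YAMAT-seq library, and with shares taken outside GlyGCC in both assays they were 1.42-fold for AlaTGC and 37.7-fold for IleGAT. The ratio of AlaTGC to IleGAT was accordingly 1.29 in tRNA-seq and 34.3 in YAMAT-seq. The tRNA-seq side has no known depth and no replicate, so this difference between the assays was not tested. Its tissue, leaf or root, is also unknown, whereas the YAMAT-seq library is labelled seedling. Assay and tissue cannot be told apart here.

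In the comparison of grasses with eudicots in tRNA-seq, the groups overlapped in all 6 families. In 8 of 52 families (15.4%) they did not overlap. IleAAT was 1.48% ± 0.821 (SD, n = 5) in grasses, against 1.32% in G. max and 0.0297% in A. thaliana. AlaCGC was 0.115% ± 0.0919 (SD, n = 5) in grasses, against 0.0293% in G. max and a value listed at 0 in A. thaliana. AlaTGC was 0.0348% ± 0.0431 (SD, n = 5) in grasses, against 0.0488% and 0.445%. IleGAT was 0.00145% ± 0.00323 (SD, n = 5) in grasses, against a value listed at 0 in G. max and 0.346% in A. thaliana. The log2 ratios of grasses to eudicots were 2.47 for IleAAT, 2.14 for AlaCGC, 1.05 for AlaAGC, -0.69 for IleTAT, -2.42 for IleGAT and -2.51 for AlaTGC. For IleAAT and IleGAT, G. max lay within the range of the grasses, so both ratios rest on A. thaliana. The sizes of the 6 ratios depend on the pseudocount. With 0.001, 0.1 and 1 in place of 0.01, AlaCGC was at 3.68, 0.80 and 0.13 and AlaAGC at 2.02, 0.29 and 0.04. IleTAT was at -0.15 without H. vulgare. The smallest adjusted p of the 6 in the two-sided exact permutation test over the 21 ways to choose 2 species was 0.619, and 0 of 6 had an unadjusted p under 0.05. Of all 52 families, 6 had an unadjusted p under 0.05 and 0 passed after adjustment. The smallest p this design allows is 0.0476. A. thaliana enters with values of unknown tissue, leaf or root, and the other species with seedlings.

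The members were also set beside 2 wider lists. Of 29 anticodons that plant plastid genomes use, 28 are in the table. Of these, 15 were lower in YAMAT-seq in 5 of 5 species, beside 59.6% of all families, and 1 was higher. The median log2 ratio of the list was -3.96, near the -3.95 of all 52 families, with AlaTGC at -1.83 and IleGAT at -1.08. The AlaTGC mean includes a ratio of 0 in S. italica. The IleGAT mean includes ratios of 0 in S. italica and Z. mays, where both assays had none of it. In A. thaliana alone, AlaTGC was at -1.53 and IleGAT at -4.64. The other list holds 8 families with A as first anticodon base, of which 6 were lower in 5 of 5 species, with a median of -5.12. It is not all such families: it leaves out AspATC (-0.18) and CysACA (-0.36), each lower in 1 of 5 species. In the other species both assays had none of them, so these means are mostly ratios of 0. Of the listed members described here, IleAAT (-5.81) is among the 6, and AlaAGC (-1.67) is not. The summed tRNA-seq share of the 8 was lowest in A. thaliana, was 2.40% in Z. mays and lay between 8.31% and 26.3% in the other 5 species.

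Likeness to other families was measured by Pearson's r of log2(percent + 0.01) over the 7 tRNA-seq species, as a description with 1 library per point and shares that sum to a fixed total. AlaTGC was most like LysTTT (r = 0.86) and CysGCA (r = 0.83), and its r with IleGAT was 0.76. IleGAT was most like LeuTAG (r = 0.92) and ProTGG (r = 0.90). Spearman's rho was 0.13 for both, since IleGAT was above 0 in 2 species only and the relation rests on A. thaliana.

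The listed sequences separate alanine from isoleucine by the acceptor stem. All 10 alanine sequences had G and T as the third pair of the acceptor stem, which is G:U in the RNA, including plastid AlaTGC and the nuclear type of all 3 alanine anticodons. None of the 6 isoleucine sequences had it, and of the 516 other sequences 1 did, a GlyCCC sequence of T. aestivum with 6 reads. The operon IleGAT sequence had a G:C pair there and the IleAAT sequences C:G. The IleGAT entry of H. vulgare had T:A, and that of T. aestivum had C and A, which do not pair.

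Over the whole sequence the operon tRNAs were far from the nuclear tRNAs of the same amino acid. Plastid AlaTGC stood 18 edits from nuclear AlaTGC over 73 bases, whereas nuclear AlaTGC stood 3 edits from a nuclear AlaCGC sequence, at A15T, T34C and C60T, of which T34C is the first anticodon base (positions from 1 at the 5′ end, AlaTGC base first). Operon IleGAT of 72 bases stood 19 edits from nuclear IleAAT of 74 bases and 24 edits from operon AlaTGC.

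Several nuclear alanine sequences differed in pairs of bases that face each other in a stem. The A. thaliana AlaCGC sequences, identical to AT1G64420 (chromosome 1, 23933137 to 23933209, plus strand) and to AT3G61755 (chromosome 3, 22860127 to 22860199, plus strand), differed at G5A and C68T, a G:C pair of the acceptor stem against A:T. The AlaTGC sequence of H. vulgare differed from nuclear A. thaliana AlaTGC at T28C and A42G, a T:A pair of the anticodon stem against C:G. In T. aestivum the AlaCGC sequence with 6 reads and one with 2 reads differed at G50A and C64T, a G:C pair of the T stem against A:T. In each of these 3 cases both bases of the pair differed and the letters can still pair. The remaining AlaCGC sequences of T. aestivum, with 2 reads each, differed from each other at A67G alone. That is an A:T pair of the acceptor stem against G:T.

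Some nuclear sequences were the same in distant species. Of the 10 grass sequences, 3 were identical to an A. thaliana gene, among them AlaAGC of Z. mays, which equals 12 of the 16 AlaAGC genes of A. thaliana, such as AT1G06610 (chromosome 1, 2025356 to 2025428, plus strand). Both AlaCGC sequences of A. thaliana were also listed in T. aestivum. The IleAAT sequence was the same in H. vulgare and T. aestivum and stood 4 edits from the nearest A. thaliana gene.

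The IleGAT entries of H. vulgare and T. aestivum were not operon tRNAs by sequence. They stood 26 edits each from the nearest plastid tRNA of A. thaliana and 15 and 16 edits from its nuclear IleTAT gene AT1G07100 (chromosome 1, 2177885 to 2177958, plus strand). They differed from each other at T3C, T34C and A38G. T3C sets C against A in the acceptor stem of the T. aestivum sequence. T34C is the base before the anticodon, so that this sequence lacks the T that stands there in the other 15 member sequences. With 2 and 4 reads they carry little weight, and the distance to the plastid tRNAs of grasses was not measured here.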

How the data were processed

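Per the file headers, the tRNA-seq table gives each family's percent of total tRNA, and its depth is unknown. The YAMAT-seq files, as deposited, hold a raw read count for each tRNA sequence, from 1 read upward. cDNA went through 12 PCR cycles, per the labels' protocols. Both cutadapt and the build TAIR10 appear in the submitters' processing notes; the sources used here give neither aligner nor reference tRNAs. Enzyme and PCR biases can shift shares.

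The members and lists were chosen with earlier results of these data known. By rule, all 6 members are named in every library, with their most read sequences, GlyGCC, the listed families and the 2 families most like AlaTGC and IleGAT. GlyCCC, LeuTAA, LysTTT, ValTAC, GlyTCC, AspATC, CysACA and the less read AlaCGC sequences were named after their values were seen. Anticodons were taken from A. thaliana names and, in grasses, from the middle 3 bases of a 7-base loop closed by 5 pairs. Applied to A. thaliana, that loop rule matched the names of 142 out of 143 sequences, 57 of 57 annotated alanine and isoleucine genes but 536 of 626 genes in all. It read an anticodon in 370 of 389 grass sequences; the other 19 (74 reads) were nearest to TyrGTA genes. Edit distances (edlib 1.3.9.post1) were taken to spliced TAIR10.1 tRNA genes without CCA. In the ranking of plastid tRNAs by reads alone, ArthCt091 was put on the opposite strand. Intervals are 95% Clopper-Pearson (scipy 1.17.1). Species were the units of the exact permutation tests on log2(percent + 0.01), adjusted by Benjamini-Hochberg over 52 families. Calculations were tested on simulated data.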

Additional observations from a re-analysis of the deposited data

Results flagged for a closer look

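Shares of each family were compared over the 7 species of tRNA-seq and the 5 of YAMAT-seq for a species far from the others by Dixon's test. Of 11 sets of species, 6 gave such a species. Chance gives about 1 in 20 for replicates with continuous values, but these are different species, and in 4 of the 6 sets most species were at 0 or not listed, where a lone nonzero value stands apart by construction. That rate therefore does not apply, and the values are a description. In A. thaliana AlaTGC stood apart at 0.445% in tRNA-seq and 0.148% in YAMAT-seq, and IleGAT at 0.346% and 0.00431%. AlaAGC stood apart in YAMAT-seq of Z. mays at 1.01e-05%, which is 2 reads, and AlaCGC in T. aestivum at 0.000114%, which is 12 reads. For AlaCGC the log2 ratio of YAMAT-seq to tRNA-seq was above 0 in A. thaliana (0.0043, from 4 reads against a value listed at 0) and below 0 in 4 of 4 grasses. That difference was not tested.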

How the results depend on the processing

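No paired analysis by replicate was possible because each group is 1 library without a replicate number; the comparison of assays was paired by species. The alternatives for grasses and eudicots left out 1 grass at a time and never a eudicot. Whether a direction reverses without A. thaliana was therefore not tested. Of 67 alternative log2 ratios between assays and 55 between grasses and eudicots, 0 reversed. Their adjusted p in the exact permutation tests lay between 0.078 and 1.0 for the assays and between 0.347 and 0.945 for the grasses and eudicots, so no call was made under any. Sizes moved with the pseudocount; IleAAT between assays ran from -9.03 at 0.001 to -0.90 at 1. With 0.1% as lowest mean, IleAAT alone of the 6 families was kept. Of the 6 families, 0 to 1 had grasses and eudicots that did not overlap when 1 grass was left out. The 1 was AlaCGC without Z. mays, then above both eudicots in the other 4 grasses. It rests on 0.0351% in S. italica against 0.0293% in G. max, each 3 times the smallest nonzero value of its column. With all grasses, 15.4% of the 52 families did not overlap, and that share was not counted without Z. mays. With reads outside GlyGCC as denominator, the A. thaliana YAMAT-seq shares were 0.330% for AlaTGC and 0.00964% for IleGAT. With sequences of at least 10 reads alone, the operon pair made up 100% of the reads of the 6 families in A. thaliana, and no reads were left in the grasses. With operon anticodons counted only where the sequence was nearest to a plastid tRNA, the share of the pair was 0% in H. vulgare and 0% in T. aestivum. The lack of replicates, the unknown tRNA-seq depth, the unknown tissue of the A. thaliana tRNA-seq values and grass counts of 1 to 12 reads limit what can be compared.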
